A study of Mus musculus with 36 samples.

Results

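Transcripts of a brain region enriched for the suprachiasmatic nucleus (SCN), the site of the central circadian clock of mammals, were compared between zeitgeber time (ZT) 12 and ZT 8. ZT 12 is by convention the time of lights-off, and the light schedule itself is not given in the labels. The comparison takes 12 of the 36 libraries of the study, 6 at ZT 12 and 6 at ZT 8, chosen by their time labels alone. All mice were adult C57BL/6J animals. The 4 groups of 3 libraries were mice on normal chow at ZT 8, mice on normal chow at ZT 12, mice on a high-fat diet at ZT 8 and mice on a high-fat diet at ZT 12, each after 10 weeks of feeding. No label says whether each library is its own animal, so p-values here reflect the spread between samples, which may be technical.

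In nocturnal rodents lights-off opens the active phase, and circulating corticosterone reaches its daily peak around that time. Glucocorticoids bind the glucocorticoid receptor (Nr3c1), which enters the nucleus and binds palindromic response elements near target genes such as Tsc22d3, Sgk1 and Fkbp5. SCN neurons themselves have little of the receptor in the adult, whereas glia, vessels and neighbouring hypothalamic neurons express it. The clock inside SCN cells runs on Per, Cry and Rev-erb repressors whose transcripts follow one another through the day, and light in the night induces immediate early genes there.

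The step was small against the spread between libraries. Values are deposited FPKM (fragments per kilobase of transcript, scaled by depth) rescaled to a sum of 1000000 per library, and changes are differences of log2(value + 1) with their standard error (SE). With diet as a covariate, limma called 0 of 15067 tested rows at an adjusted p under 0.05 (Benjamini-Hochberg), a share of 0%, and the smallest adjusted p was 0.156. At an unadjusted p under 0.05, 283 rows (1.88%) were higher and 389 rows (2.58%) were lower at ZT 12. In 26 rows (0.173%) every ZT 12 library lay above every ZT 8 library, and in 30 rows (0.199%) every ZT 12 library lay below. The median change over all rows was -0.03. Without rescaling, the unadjusted split turned to 424 higher and 260 lower rows, so the balance of directions moved with the scaling.

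One library stood apart, the second high-fat replicate at ZT 8, with the lowest sum of deposited values, 302899, and the lowest Avp and Oxt. Without it limma called 2 of 15034 rows (0.0133%), Tsc22d3 higher and Fabp7 lower at ZT 12, both at an adjusted p of 0.049999, just under the threshold. The unadjusted split without it was 417 higher (2.77%) and 336 lower rows (2.23%). When all 36 libraries supplied the spread, limma called 7 of 15173 rows (0.0461%) over the same step. Of these, 6 rose (0.0395%), namely Tsc22d3, Plin4, Mfsd2a, Sgk1, Cdkn1a and Nfkbia, and Fabp7 fell. With that library left out of the 36, the calls were Tsc22d3, Plin4, Mfsd2a, Sgk1 and Fabp7.

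The promoter windows of Sgk1 and Map3k6, higher at ZT 12 at an unadjusted p under 0.05, are shown because they hold a palindrome of the kind the glucocorticoid receptor binds. The windows are from RefSeq (GRCm38.p6), run from 250 bases before to 50 bases after a listed start, and the capitals mark the palindrome. The Sgk1 window is chr10:21993640-21993939 on the plus strand, inside the span of the gene (chr10:21882184-21999903, GENCODE M21). The Map3k6 window is chr4:133240568-133240867 on the plus strand.
Sgk1: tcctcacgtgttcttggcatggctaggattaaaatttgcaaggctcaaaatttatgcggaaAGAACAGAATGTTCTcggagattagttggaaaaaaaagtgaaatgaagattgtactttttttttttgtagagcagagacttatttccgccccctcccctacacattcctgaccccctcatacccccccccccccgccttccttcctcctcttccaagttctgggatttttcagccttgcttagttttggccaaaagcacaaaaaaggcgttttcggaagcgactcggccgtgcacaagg
Map3k6: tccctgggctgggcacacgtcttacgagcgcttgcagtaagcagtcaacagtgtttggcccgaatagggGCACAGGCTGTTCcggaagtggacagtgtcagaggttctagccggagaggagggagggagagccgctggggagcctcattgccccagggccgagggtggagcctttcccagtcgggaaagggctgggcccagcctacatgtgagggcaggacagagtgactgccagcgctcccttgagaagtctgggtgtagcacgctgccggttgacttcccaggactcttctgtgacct
The full palindrome, the arms AGAACA and TGTTCT with 3 bases between them, searched on both strands, stood in 3 of 32851 RefSeq promoter windows (0.00913%), and the Sgk1 window was one of them. The looser palindrome, the arms GNACA and TGTNC with 3 bases between them, includes every full match and stood in 156 windows (0.475%). Of 34 windows of 24 glucocorticoid-responsive genes the looser palindrome stood in 3 (8.824%), for Sgk1, Map3k6 and Mt1. The single arm TGTTCT is common, with 18.97% of all windows. It stood in 17.65% of these 34 windows, for Tsc22d3, Bcl6 and Sult1a1 as well as Sgk1. A match is a description of these letters, and receptor binding was not measured.

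Tsc22d3 had the smallest p of the 12 leading higher genes, and Plin4 and Sgk1 had the largest changes. Tsc22d3 (chrX:140539528-140600659), which encodes the glucocorticoid-induced leucine zipper, measured 110, 121 and 123 in chow at ZT 8 and 171, 182 and 168 in chow at ZT 12. Under the high-fat diet it measured 136, 148 and 116 at ZT 8 and 168, 181 and 209 at ZT 12. Every ZT 12 library lay above every ZT 8 library, in both diets together. Its log2 change was 0.52 ± 0.08 (SE, n = 6 against 6), 1.43-fold, with an adjusted p of 0.156 in limma, and 7.47e-04 when all 36 libraries supplied the spread.

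Sgk1, the serum- and glucocorticoid-regulated kinase, measured 22.3, 42.9 and 26.8 in chow at ZT 8 and 48.9, 79.7 and 108 in chow at ZT 12. In high-fat libraries it measured 31.7, 40.9 and 19.6 at ZT 8 and 61.4, 76.5 and 125 at ZT 12. The times did not overlap, and the libraries at ZT 12 were spread widely, from 48.9 to 125. Its log2 change was 1.40 ± 0.25, 2.64-fold, with an adjusted p of 0.156 in limma on the 12 libraries and 0.0116 on the 36.

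Plin4, which encodes a coat protein of lipid droplets, measured 1.39, 1.80 and 1.71 in chow at ZT 8 and 4.66, 9.69 and 10.3 in chow at ZT 12. High-fat libraries gave 2.51, 4.46 and 1.36 at ZT 8 and 3.87, 8.91 and 11.5 at ZT 12. The times overlapped in the library that stands apart, at 4.46, and the first high-fat replicate at ZT 12, at 3.87. The log2 change was 1.498 ± 0.28 with it and 1.66 ± 0.26 without it, and limma's adjusted p on the 36 libraries was 7.47e-04.

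**Figure D1:**
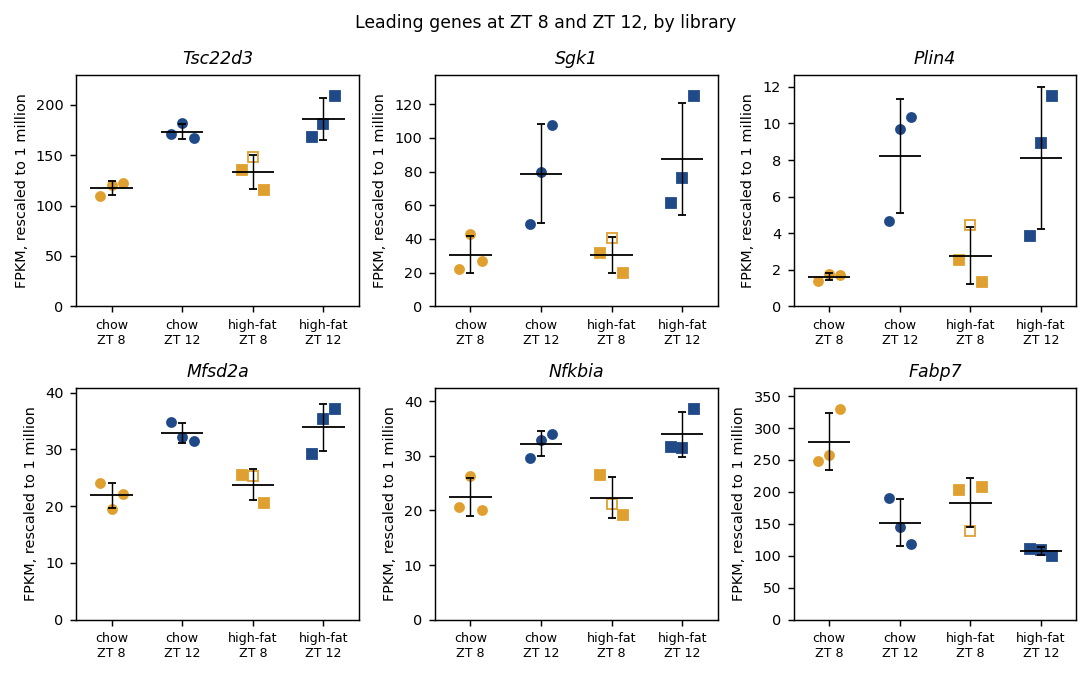
Rescaled FPKM (linear axes from 0) of 6 genes in each of the 12 libraries, by diet and time. Points are libraries, the bar and whiskers are the mean and SD of 3 libraries, and the open square is the high-fat ZT 8 library that stands apart. Tsc22d3, Sgk1, Mfsd2a and Nfkbia do not overlap between the times, whereas Plin4 overlaps through the open square and Fabp7 through the open square and 2 chow libraries at ZT 12.

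Mfsd2a and Nfkbia had changes close in size to that of Tsc22d3. Mfsd2a, a lysophospholipid transporter of the blood-brain barrier, measured 24.1, 19.6 and 22.1 in chow at ZT 8 and 34.9, 32.2 and 31.4 in chow at ZT 12. High-fat libraries gave 25.4, 25.3 and 20.6 at ZT 8 and 29.2, 35.4 and 37.1 at ZT 12. Nfkbia, which encodes an inhibitor of NF-kappa-B, ran from 19.2 to 26.5 at ZT 8 and from 29.6 to 38.6 at ZT 12. Neither gene overlapped between the times. The log2 changes were 0.53 ± 0.08 for Mfsd2a and 0.55 ± 0.10 for Nfkbia, and limma's adjusted p on the 36 libraries was 9.39e-04 for Mfsd2a and 0.0470 for Nfkbia.

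The other 7 of the 12 leading higher genes were Klf2, Plekhf1, Inmt, S100a11, Ifitm1, Cdkn1a and Sap30. Of all 12, 9 did not overlap between the times, beside 0.173% of all rows. The 12 higher genes were ranked on this step by their unadjusted p, so that count is no support for it. Cdkn1a, a cell-cycle inhibitor, ran from 5.39 to 8.26 with a median of 6.81 at ZT 8, and from 7.81 to 18.8 with a median of 12.2 at ZT 12. It was called on the 36 libraries at an adjusted p of 0.0132 in limma. Klf2, a transcription factor of endothelial cells, ran from 4.50 to 5.35 at ZT 8 and from 6.07 to 8.99 at ZT 12, a change of 0.58 ± 0.10 that was not called on either set of libraries. Ifitm1, an interferon-induced membrane protein gene, had medians of 7.80 at ZT 8 and 14.8 at ZT 12 and was highest in chow at ZT 12, where it measured 26.4, 15.3 and 29.9. Plekhf1, Inmt, S100a11 and Sap30 had log2 differences of 0.51 to 0.72 without overlap, and none was called on the 12 or the 36 libraries. The SE of Inmt was 0.13 on the 12 libraries and 0.42 on the 36.

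Fabp7 led the lower genes. It encodes the brain fatty acid-binding protein of astrocytes and radial glia. It measured 249, 257 and 330 in chow at ZT 8 and 191, 145 and 119 in chow at ZT 12. Under the high-fat diet it measured 203, 139 and 207 at ZT 8 and 111, 110 and 99.6 at ZT 12. Within each diet every ZT 12 library was below every ZT 8 library, and across diets the times overlapped. Its log2 change was -0.82 ± 0.13, 1.76-fold lower, and -0.91 ± 0.11 without the library that stands apart. Limma's adjusted p was 0.156 on the 12 libraries and 9.39e-04 on the 36.

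The other leading lower genes were Cstad, Opalin, Bub1b, AA413626, Cdc42ep1, Pllp, Ebf2, Tmem215, Nxpe4, Sall2 and Nr1d1, and none of these was called on the 12 or the 36 libraries. Opalin, a myelin gene of oligodendrocytes, ran from 81.3 to 135 with a median of 95.0 at ZT 8 and from 54.9 to 82.7 with a median of 65.1 at ZT 12. Pllp, which encodes the myelin protein plasmolipin, had medians of 83.5 and 62.4. Cstad ran from 4.52 to 6.73 at ZT 8 and from 1.69 to 3.89 at ZT 12 without overlap. Bub1b, a spindle checkpoint kinase gene, and Ebf2, a transcription factor gene, had medians of 2.37 and 2.32 at ZT 8 and of 1.04 and 0.828 at ZT 12, close to the level of the filter. Of the 12 lower genes, 5 did not overlap between the times, beside 0.199% of all rows. These 12 genes were also ranked on this step by their unadjusted p, so that count is no support for it.

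**Figure D2:**
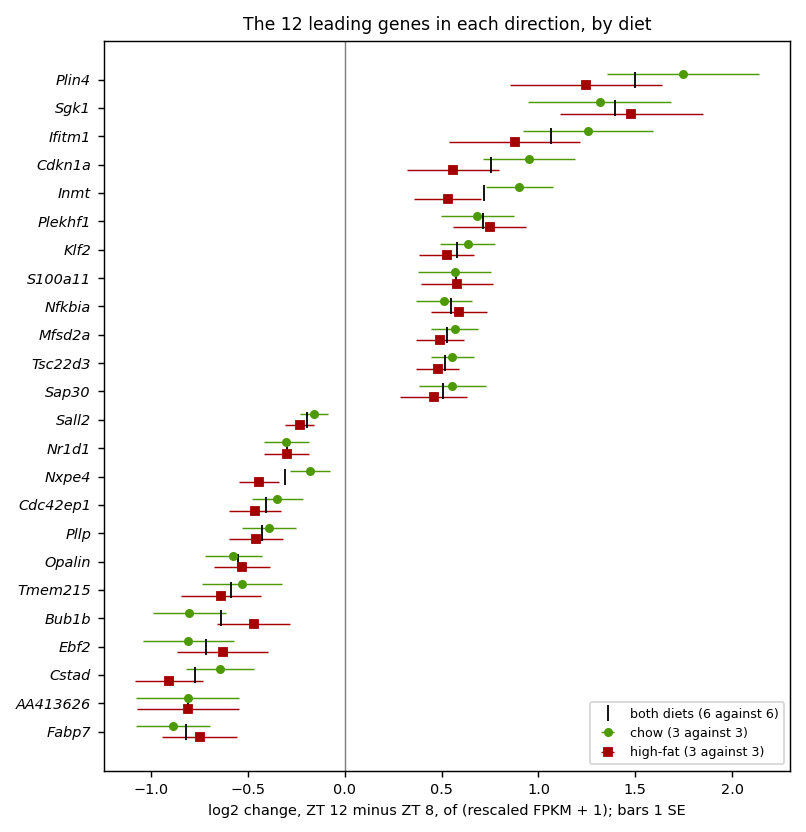
Log2 change from ZT 8 to ZT 12 of log2(rescaled FPKM + 1) for the 12 leading genes in each direction. Circles are chow and squares are high-fat, each 3 libraries against 3 with bars of 1 SE, and the vertical tick is the change over both diets. The genes were chosen for having the same sign in both diets, so no marker lies across 0 from its partner.

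The diets did not differ detectably in this step. Limma called 0 of 15067 rows (0%) for a difference between the diets, with 280 rows (1.86%) at an unadjusted p under 0.05 and a smallest adjusted p of 0.716. The 5 genes with the smallest p were Anxa1, Ide, Slc47a1, Cdh1 and Car13, all higher at ZT 12 in chow and lower at ZT 12 under the high-fat diet. Anxa1, which encodes annexin A1, measured 2.15, 2.27 and 2.83 in chow at ZT 8 and 5.77, 5.96 and 7.09 in chow at ZT 12. Under the high-fat diet it measured 5.36, 3.80 and 3.55 at ZT 8 and 3.62, 5.88 and 2.81 at ZT 12. Chow separated the times and the high-fat diet did not, yet the difference of the steps, -1.16 ± 0.30 on the log2 scale, had an adjusted p of 0.716. The summed markers of meninges and fibroblasts, described further on, also separated the times in chow only. With their mean level as a covariate, the change over both diets became 0.15 for Anxa1, -0.07 for Slc47a1 and -0.21 for Cdh1, and the part of these markers in the difference between the diets was not tested. For Tsc22d3 the difference of the steps was -0.08 ± 0.16, and for Sgk1 it was 0.16 ± 0.52, an interval too wide to show that the diets act alike.

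The list of glucocorticoid-responsive genes held Tsc22d3, Sgk1, Plin4, Nfkbia and Cdkn1a of the leading higher genes. It had 30 members, of which 29 passed the filter and Lcn2, at 0 to 1.32, did not. The list was written with earlier results of these data known, so its counts are no independent support. At an unadjusted p under 0.05, 14 of the 29 were higher and 2 were lower, beside 1.88% and 2.58% of all rows. In all, 25 of 29 changes were above 0 beside 39.7% of all rows, with a median of 0.30 beside -0.03 over all rows. By diet, 12 were higher and 1 lower in chow (1.85% and 0.611% of all rows), and 8 were higher and 0 lower under the high-fat diet (1.41% and 4.93% of all rows). Without the library that stands apart, 16 were higher and 0 lower, beside 2.77% and 2.23% of all rows. On the 36 libraries 5 were called, Tsc22d3, Sgk1, Plin4, Cdkn1a and Nfkbia, all higher, beside 0.0395% of all rows called higher.

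Among the other glucocorticoid targets, Fkbp5, a co-chaperone of the receptor, ran from 17.7 to 24.9 with a median of 19.4 at ZT 8 and from 21.4 to 31.6 with a median of 26.3 at ZT 12. Its change of 0.35 ± 0.10 had an unadjusted p of 0.00573 and was not called. Map3k6, whose promoter window holds the looser palindrome, had 0.685 to 1.17 at ZT 8 and 1.03 to 2.03 at ZT 12, with 5 of 6 libraries at ZT 12 above all at ZT 8. Klf15, a transcription factor gene, made a small step without overlap, from 25.8 to 30.7 at ZT 8 and from 31.0 to 36.2 at ZT 12. Klf9, another target with a transcription factor product, had a change of 0.08 ± 0.18. The metallothionein gene Mt1, whose window also holds the palindrome, had 0.30 ± 0.22, and 0.08 without the library that stands apart, where Mt1 was lowest at 506.

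The list members that sense or regenerate the hormone lay on the other side of 0. Nr3c1, the receptor itself, had a median of 42.4 at ZT 8 and 38.2 at ZT 12 (-0.22 ± 0.10, unadjusted p of 0.0395). Hsd11b1, which regenerates active glucocorticoid inside cells, changed by -0.37 ± 0.16 (unadjusted p of 0.0447). Neither passed an unadjusted p of 0.05 without the library that stands apart, and neither was called. Nr3c2, the mineralocorticoid receptor, had -0.12 ± 0.19.

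**Figure D3:**
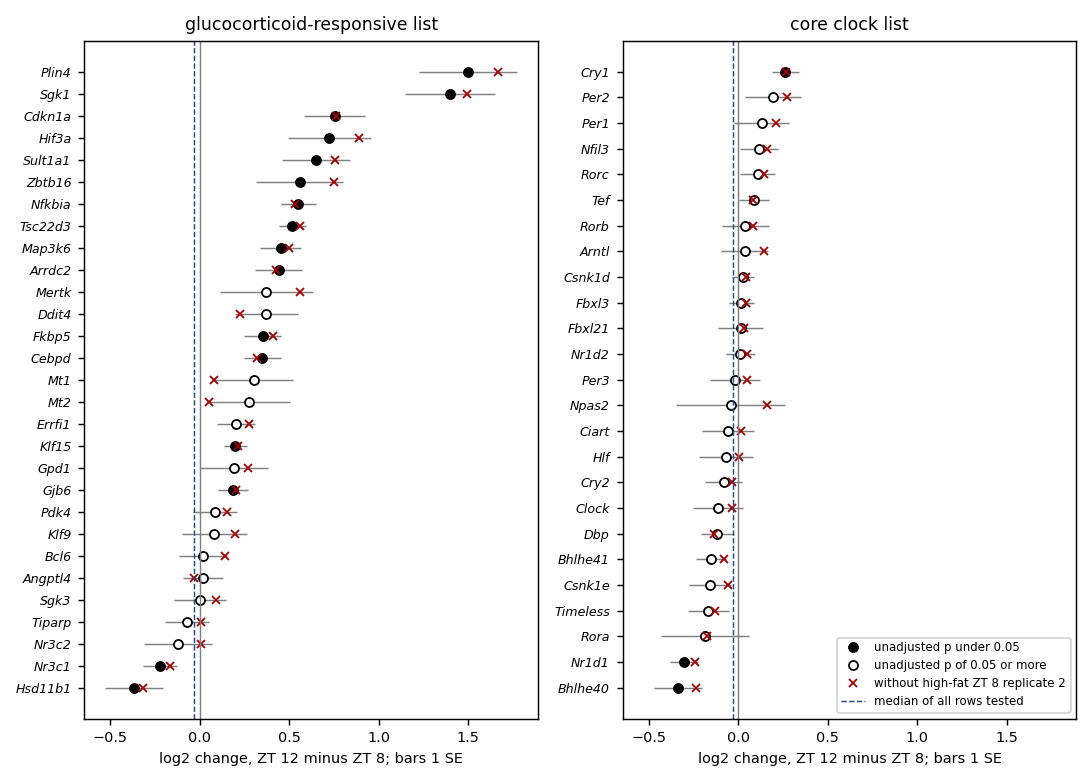
Log2 change from ZT 8 to ZT 12 of each tested member of the glucocorticoid-responsive list (29 genes) and the core clock list (25 genes), with bars of 1 SE from 12 libraries. Filled points have an unadjusted p under 0.05, crosses leave out the high-fat ZT 8 library that stands apart, and the dashed line is the median of all 15067 rows. The first list reaches from -0.37 to 1.498 and lies mostly right of the dashed line, and the clock list lies between -0.34 and 0.26.

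Core clock genes moved little between ZT 8 and ZT 12. All 25 were tested, 12 had changes above 0 beside 39.7% of all rows, and the median was -0.02 beside -0.03 over all rows. Cry1, a late-phase repressor, was higher at ZT 12 with an unadjusted p of 0.00469, running from 19.5 to 21.5 with a median of 20.0 at ZT 8 and from 21.1 to 27.3 with a median of 24.7 at ZT 12. Nr1d1, which encodes the repressor REV-ERB alpha, ran from 95.9 to 130 at ZT 8 and from 83.9 to 94.7 at ZT 12 without overlap, a change of -0.30 ± 0.08 (unadjusted p of 0.00246). Bhlhe40 was the other member past an unadjusted p of 0.05, at -0.34 ± 0.13. At that level 1 member of 25 was higher and 2 were lower, beside 1.88% and 2.58% of all rows. None was called.

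Per1, Per2, Arntl and Dbp overlapped between the times. Per1 had a median of 27.7 at ZT 8 and 32.0 at ZT 12, and Per2 had 12.7 and 14.9. Arntl, the positive limb of the loop, had medians of 14.4 and 15.9, and Dbp, an output factor gene, had 95.7 and 87.1. The E-box CACGTG, through which the clock drives Per and Cry genes, stood in 7.15% of all promoter windows. Of 29 windows of 20 clock genes 20.69% held it, for Per1, Cry1, Ciart, Tef and Bhlhe41. Of 34 windows of 24 glucocorticoid-responsive genes 11.76% held it, for Bcl6, Fkbp5, Klf15 and Sgk1. The Sgk1 window shown above is among them, with the E-box in small letters.

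SCN neuropeptides and their receptors carried wide spreads. Vip, a peptide of the light-receiving SCN core, measured 29.0, 23.6 and 18.6 in chow at ZT 8 and 30.9, 60.5 and 77.7 in chow at ZT 12. With the high-fat diet it measured 37.3, 6.30 and 20.6 at ZT 8 and 135, 65.4 and 19.1 at ZT 12. In chow every ZT 12 library was higher, and under the high-fat diet replicate 3 at ZT 12 lay among the ZT 8 values. The change was 1.39 ± 0.48 (unadjusted p of 0.0131), and 1.07 without the library that stands apart. Of 27 tested list members, 4 were higher at an unadjusted p under 0.05 (Vip, Vipr2, Avpr1a and Prokr2), 1 was lower (Cck), beside 1.88% and 2.58% of all rows, and none was called. Without the library that stands apart, 3 were higher and 0 lower, since Vipr2 and Cck no longer passed, beside 2.77% and 2.23% of all rows.

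Avpr1a, a vasopressin receptor gene, was the tightest of these. It ran from 3.13 to 4.51 at ZT 8 and from 4.21 to 6.64 at ZT 12, a change of 0.46 ± 0.11 with an unadjusted p of 0.00159. Avp itself measured 1518, 1198 and 1267 in chow at ZT 8 and 2767, 2277 and 410 in chow at ZT 12. Under the high-fat diet it measured 1809, 234 and 1459 at ZT 8 and 3686, 2125 and 770 at ZT 12. Replicate 3 of each diet at ZT 12 and high-fat replicate 2 at ZT 8 were the 3 lowest for both Avp and Oxt. The Avp change of 0.57 ± 0.61 was 0.10 without the last of these.

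Genes that light or neuronal activity induce differed little. Of 31 tested, 1 was higher at an unadjusted p under 0.05 (Maff, 0.36 ± 0.11), beside 1.88% of all rows. In all, 26 changes were above 0, with a median of 0.09, beside 39.7% of all rows and a median of -0.03. Without the library that stands apart, 3 were higher (Fosl2, Klf4 and Maff), beside 2.77% of all rows. Fos ran from 3.85 to 13.5 at ZT 8 and from 5.49 to 11.1 at ZT 12. Among 27 cytosolic heat shock genes, Hspb1, Dnajb1 and Hspb8 were higher at that level, with a list median of 0.02, though Hspb8 did not pass without the library that stands apart. Creld2 and Xbp1 were the 2 of 23 endoplasmic reticulum genes that were higher. Neither cold-inducible RNA-binding gene passed that level, with 0.05 ± 0.08 for Cirbp and -0.04 ± 0.08 for Rbm3.

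In lipid metabolism the members split. Over all rows, 39.7% of changes were above 0 and 60.3% below, with a median of -0.03. The median over all rows was 0.04 in chow, -0.11 under the high-fat diet and 0.01 without the library that stands apart. At an unadjusted p under 0.05, 1.88% of all rows were higher and 2.58% lower. Of 33 genes of fatty acid oxidation and PPAR targets, Mfsd2a was higher and Fabp7, Cd36 and Acot2 were lower at an unadjusted p under 0.05, with a median of -0.05. Cd36, a fatty acid translocase, had medians of 3.46 at ZT 8 and 1.91 at ZT 12. Of 30 genes of cholesterol and fatty acid synthesis, 24 had changes below 0, with a median of -0.08, and Dhcr7 and Srebf2 were lower at that level only with the library that stands apart. Of 43 channel and transmitter genes, Cacna1g and Kcnj6 were lower and 9 changes were above 0, with a median of -0.09. The channel median was 0.05 in chow and -0.23 under the high-fat diet, and without the library that stands apart it was -0.03, with Kcnk2 and Kcnn2 higher and Cacna1g lower. Crh, a stress peptide of neighbouring nuclei, was lower among 27 feeding peptide and hormone receptor genes, with medians of 15.4 and 12.1 (-0.44 ± 0.13, unadjusted p of 0.0045), and Cartpt and Tac1 were higher. Neither Cartpt nor Tac1 passed without the library that stands apart. Of 42 oxidative phosphorylation and 46 ribosomal protein genes, 40 each were above 0, but their medians of 0.11 and 0.09 became 0.01 and -0.03 without the library that stands apart, which was low in both lists.

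Markers of meninges and fibroblasts lay higher at ZT 12. All 19 tested markers of meninges and fibroblasts had changes above 0, beside 39.7% of all rows, with a median of 0.82. At an unadjusted p under 0.05, 15 were higher, beside 1.88% of all rows. In chow 17 were higher with a median of 1.27, beside 1.85% of all rows and a median of 0.04 over all rows. Under the high-fat diet 0 were higher with a median of 0.30, beside 1.41% of all rows and a median of -0.11. Their summed level, most of it Ptgds, ran from 1042 to 2946 in chow at ZT 8, from 3309 to 5033 in chow at ZT 12, from 1017 to 2740 in high-fat at ZT 8 and from 1404 to 3698 in high-fat at ZT 12. Chow separated the times, and the high-fat diet did not. The defining genes Dcn and Col1a1 were above 0 in every library. In bulk tissue, more cells of a type in the dissected sample and more RNA per cell cannot be told apart.

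Of the following markers of other tissue, at most 1 per list was higher at an unadjusted p under 0.05. Over all rows, 39.7% of changes were above 0, and 1.88% were higher and 2.58% lower at that level. Of 26 markers of other hypothalamic nuclei, 11 had changes above 0, with a median of -0.20, and at an unadjusted p under 0.05 0 were higher and 2 lower. Of 18 markers of thalamus, cortex and striatum, 11 were above 0, with 1 higher and 2 lower at that level. Liver markers had 16 of 17 changes above 0 with a median of 0.62, and blood markers 8 of 9 with a median of 0.26. None of either list passed that level. The mean log2 level of the liver markers was 4.84 in chow replicate 2 and 4.57 in high-fat replicate 2 at ZT 12. It was 4.06 in high-fat replicate 2 at ZT 8 and ran from 1.85 to 3.01 in the other libraries. The 5 pituitary and 8 choroid plexus markers had medians of -0.05 and 0.00, and none passed.

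With the mean level of the meninges and fibroblast list as a covariate, 8 of the 29 glucocorticoid-responsive genes were higher at an unadjusted p under 0.05, where 2.73% of all rows were higher and 7.18% lower, and the list median was 0.18 beside -0.09 over all rows. With that covariate the log2 change of Sgk1 was 1.102, that of Plin4 1.01, that of Tsc22d3 0.40 and that of Fabp7 -0.77. All 24 leading genes kept their sign, and 2, Cdkn1a and Ifitm1, became smaller by over 1.5 times. Without that covariate, all 17 oligodendrocyte markers had changes below 0, beside 60.3% of all rows, with a median of -0.25. Of the 17, Opalin, Sox10 and Enpp2 were lower at an unadjusted p under 0.05, beside 2.58% of all rows. The median of the 17 was -0.11 in chow and -0.39 under the high-fat diet. Without the library that stands apart it was -0.16, and of Opalin, Sox10 and Enpp2 only Opalin passed that level. The part of oligodendrocyte markers in the lower level of Opalin and Pllp was not tested. The median of 15 neuronal markers was -0.05, and Snap25 ran from 1077 to 1711.

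**Figure D4:**
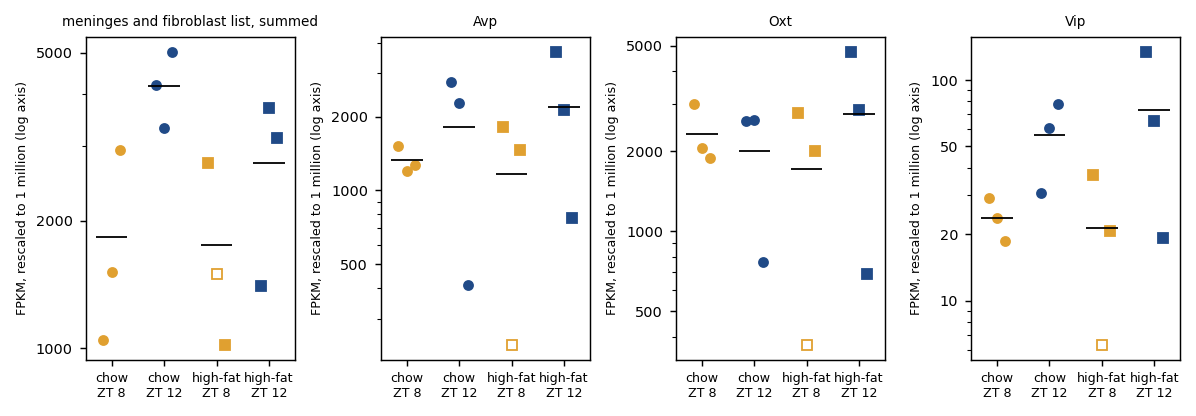
Summed rescaled FPKM of the 19 meninges and fibroblast markers, and levels of Avp, Oxt and Vip, in each of the 12 libraries on log axes. Points are libraries, bars are means of 3 libraries, and the open square is the high-fat ZT 8 library that stands apart. The marker sum separates the times in chow only, and 3 libraries lie low in both Avp and Oxt.

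Avp, Vip, Six6, Lhx1 and Rgs16, which mark the SCN, were above 0 in all 12 libraries, and Oxt, a peptide of neighbouring magnocellular neurons, ran from 372 to 4751. The tissue therefore holds the SCN together with its surroundings. Without the 3 libraries low in Avp and Oxt, the 24 leading genes kept their sign and limma called 2 rows, both of the predicted gene Gm5801. Across genes, the median Pearson r was 0.969 between libraries within a group and 0.970 between groups. Rough relative depth, read from the smallest steps between FPKM values of short genes, had a median of 0.861 at ZT 8 and 1.09 at ZT 12, and its part in the results was not tested.

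The step from ZT 8 to ZT 12 was then set against the step at lights-on, from ZT 20 to ZT 0, which shares no library with it. This tests which genes differ in their change between the 2 light transitions. Because the 2 steps lie on opposite sides of the daily cycle, a gene with a daily rhythm can change in opposite directions over them. The contrast cannot tell such a rhythm from an effect of the light transitions. It also includes the 12 libraries on which the leading genes were ranked, so its calls are not independent of that ranking. Over 24 libraries limma called 8 of 15169 rows (0.0527%), and 481 rows (3.17%) had an unadjusted p under 0.05. Tsc22d3, Mfsd2a, Hif3a, Plin4, Plekhf1, Sgk1 and Klf15 were higher in the lights-off step than in the lights-on step, and Fabp7 was lower. Tsc22d3 had 0.52 at lights-off and -0.58 at lights-on, a difference of 1.095 ± 0.095 with an adjusted p of 1.42e-06. Sgk1 had 1.40 and -0.72, a difference of 2.11 ± 0.37 with an adjusted p of 0.0186. Hif3a, which encodes a hypoxia-inducible factor subunit, had 0.72 and -1.34, a difference of 2.06 ± 0.29 with an adjusted p of 0.00126. From ZT 8 to ZT 12 alone, Hif3a overlapped between the times and had an adjusted p of 0.954 in limma. That change was 1.02 in chow and 0.43 under the high-fat diet. With the meninges and fibroblast level as a covariate it was 0.26 over both diets. Fabp7 had -0.82 and 0.93, a difference of -1.75 ± 0.20 with an adjusted p of 9.08e-05. Its mean went from 140 at ZT 20 to 343 at ZT 0 in chow, and from 156 to 234 under the high-fat diet. The fit held the diet difference equal at all times, and a difference between the diets in this contrast was not tested.

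Of the 8 called genes, 5 belong to the glucocorticoid-responsive list (Tsc22d3, Sgk1, Plin4, Hif3a and Klf15). These are 5 of its 29 tested members, beside 0.0527% of all rows. The list was written with earlier results of these data known, so this count is no independent support. At lights-on the list's median change was -0.05, with 21 of 29 below 0. The list's median difference between the steps was 0.38, with 21 of 29 above 0. The core clock list had a median difference of -0.04, with 12 of 25 above 0. The share of all rows above 0 in this contrast is not given here. The meninges and fibroblast markers went the opposite way in this contrast, with a median of 1.33 at lights-on and a difference between the steps of -0.59. Only 1 of the 19 markers had a difference above 0. Leaving out each of the 24 libraries in turn and the 6 other alternatives made 30, and these gave 6 to 11 calls. Sgk1 was called under 27 of them, all but those without chow replicate 1 at ZT 8, chow replicate 3 at ZT 12 or high-fat replicate 1 at ZT 20. Klf15 was called under 13. Tsc22d3, Mfsd2a, Hif3a, Plin4, Plekhf1 and Fabp7 were called under all 30.

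**Figure D5:**
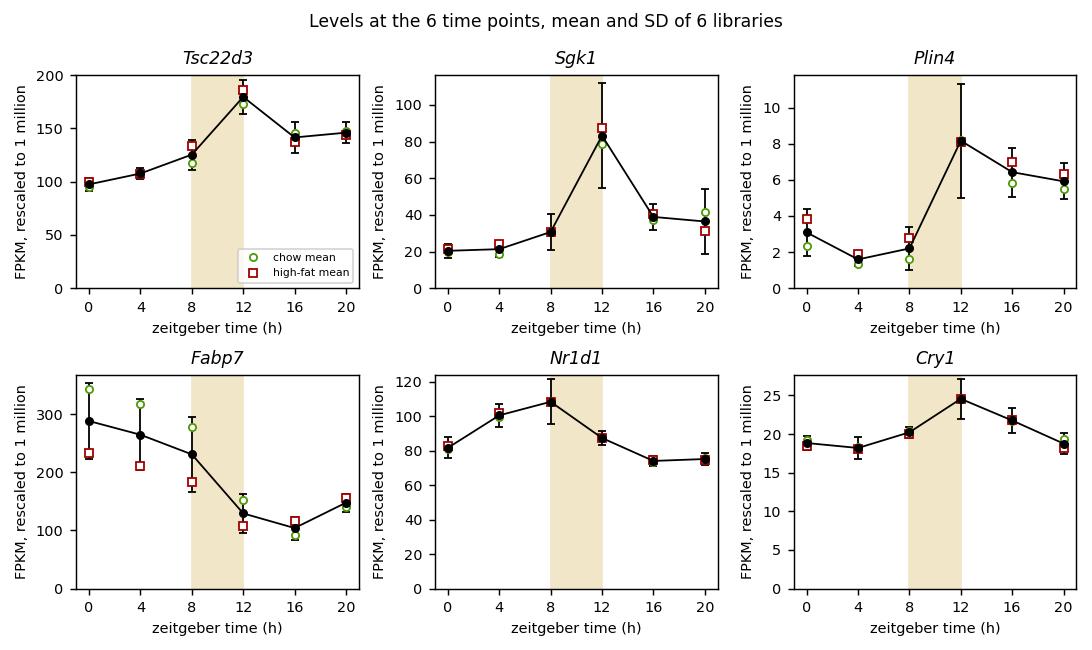
Rescaled FPKM (axes from 0) of 6 genes at ZT 0, 4, 8, 12, 16 and 20. Black points and whiskers are the mean and SD of 6 libraries, open symbols are the means of 3 libraries per diet, and the shaded band is the step from ZT 8 to ZT 12. Tsc22d3, Sgk1, Plin4 and Cry1 have their highest mean at ZT 12, Fabp7 its lowest at ZT 16, and Nr1d1 its highest at ZT 8.

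Over the 6 time points the leading genes placed this step differently. Sgk1 averaged 20.4 ± 3.7 (SD, n = 6) at ZT 0, 30.7 ± 9.6 at ZT 8, 83.3 ± 29 at ZT 12 and 38.9 ± 7.0 at ZT 16. The ZT 12 libraries, at 48.9 to 125, lay above the ZT 16 libraries, at 26.2 to 47.0. Tsc22d3 averaged 97.5 ± 6.1 at ZT 0, 180 ± 16 at ZT 12 and 142 ± 14 at ZT 16. Mfsd2a instead stayed near its ZT 12 level of 33.4 ± 2.9, with 37.5 ± 5.0 at ZT 16 and 34.1 ± 2.3 at ZT 20. Fabp7 ran from 288 ± 66 at ZT 0 to 104 ± 20 at ZT 16.

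Of the 12 leading higher genes 9 had their highest mean at ZT 12, and of the 12 leading lower genes 8 had theirs at ZT 8. Since they were chosen on this step, that is a description. Inmt and S100a11 had their highest mean at ZT 0, and Mfsd2a at ZT 16. Klf2, Inmt, S100a11, Ifitm1 and Sap30 also had changes above 0 at lights-on (0.30, 0.63, 0.55, 0.88 and 0.07). The other leading higher genes had changes below 0 there. The lowest mean of the lower genes was at ZT 12 for 6 and at ZT 16 for 6. With all 36 libraries, limma called 71 rows between ZT 0 and ZT 4, 149 between ZT 4 and ZT 8, 7 between ZT 8 and ZT 12, 9 between ZT 12 and ZT 16, 0 between ZT 16 and ZT 20, and 11 between ZT 20 and ZT 0. The step with 0 calls had 604 rows at an unadjusted p under 0.05, and neighbouring steps share libraries.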

How the data were processed

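RNA was measured in 12 libraries, 3 per diet at ZT 8 and at ZT 12. Per the labels' protocols, an SCN-enriched region was dissected from fresh brain, and a stranded Illumina TruSeq mRNA kit was used. Another label field calls the material a brain homogenate. Trimmomatic, TopHat and Cufflinks, with builds mm10 and GRCm38, are named in the submitters' processing notes. The deposited values are taken to be FPKM, from those notes and from the values, since the headers name no unit, with 24883 rows in a table per diet. Time points are numbers in the labels and ZT in the file headers. Depth in reads is not given in the sources used here, and relative depth was roughly estimated from 10 genes of 117 nt (1.91-fold between the extremes).

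Each library was rescaled to sum to 1000000 and transformed as log2(value + 1), which understates changes of low genes. Rows with a mean of at least 1 were tested with limma 3.58.1 (mean-variance trend, two-sided) in R 4.3.3, with diet as a covariate, and adjusted by Benjamini-Hochberg over all rows. The fit was tested on simulated data. Rows of the same symbol were kept apart. The named genes are the 12 per direction with the smallest unadjusted p, since none was called, on 1 row, with no placeholder name and the same sign in both diets, together with all core clock genes. For the diet difference they are the 5 with the smallest p, and for the lights-on comparison the called genes. The members and gene lists were chosen with earlier results of these data known. Coordinates are from GENCODE M21, and figures were drawn with matplotlib 3.10.9.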

Additional observations from a re-analysis of the deposited data

Results flagged for a closer look

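Values of 52 gene and time combinations (6 libraries each) were checked for a single library far from the others, which chance gives in about 1 in 20 such groups. Tsc22d3 at ZT 12 had high-fat replicate 3 at 209, above the other 5 libraries at 168 to 182. Plin4 at ZT 8 had the second high-fat replicate, the library that stands apart, at 4.46, above the others at 1.36 to 2.51. Opalin at ZT 8 had the second chow replicate at 135, above the others at 81.3 to 101. Bub1b at ZT 8 had high-fat replicate 3 at 1.41, below the others at 2.32 to 2.55.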

How the results depend on the processing

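The 0 calls between ZT 12 and ZT 8 became 12 with library quality weights (Cstad, Fabp7, Inmt, Klf2, Mfsd2a, Opalin, Plekhf1, Plin4, Sgk1 and Tsc22d3 among them), 7 with all 36 libraries and 5 with 35. They became 3 in chow alone, 1 in high-fat alone and 2 without the 3 libraries low in Avp and Oxt. Leaving out 1 library gave 0 to 2 calls, with 2 without high-fat replicate 2 at ZT 8 and 2 without high-fat replicate 3 at ZT 12. The count of glucocorticoid-responsive genes at an unadjusted p under 0.05, 14, became 7 with tissue scores as covariates, 8 with the meninges score alone and 6 in high-fat alone, and leaving out 1 library gave 12 to 16. Calls for a diet difference, 0, ran from 0 to 2 when 1 library was left out, all of them microRNA or small nucleolar RNA rows. Of the single-gene changes, Anxa1 in high-fat alone turned to -0.0669, and the cause was not tested. Of 1649 single-gene values, 1551 kept their direction and their side of the threshold and 24 kept their direction and newly passed it. In 74 values the sign differed from that on the 12 libraries, 9 of them of Anxa1, Car13, Cdh1, Ide and Slc47a1 and 65 of core clock genes, and 0 of the 24 leading genes. The alternatives added after seeing the data were those with 35 libraries, without the libraries low in Avp and Oxt, without those richest in Alb, with summed rows, with the meninges score and without each library at ZT 0 or ZT 20. Same-numbered replicates at the 2 times correlated at -0.05 to 0.20 within a diet, so no clear pairing by number was seen across the times. Pairing by number across diets was not tested. With a replicate block the calls were 0 over the step, also within diets, 0 for the diet difference and 9 for the lights-off against the lights-on step. Bub1b, Ebf2 and Map3k6 have values near the filter, and the part of depth in them was not tested.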

Other observations

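The predicted gene Gm5801 stands on 2 rows that exchange their levels between libraries. In all 6 libraries at ZT 8 the first row lay at 2.06 to 2.60 and the second at 37.5 to 57.5. In 5 of 6 libraries at ZT 12 the first row was the higher one, reaching 54.8, and high-fat replicate 3 kept the order of ZT 8, with 1.72 and 42.6. The sum of both rows was 39.8 to 60.1 at ZT 8 and 44.3 to 57.5 at ZT 12. Over the 36 libraries the first row was the higher one in 14. Taken alone, the rows had log2 differences of 3.22 ± 0.62 and -3.25 ± 0.55, while the sum overlapped between the times. Both were among the rows that limma called in chow alone, where Mir1966 was the other, and they were the 2 called without the 3 libraries low in Avp and Oxt and without high-fat replicate 3 at ZT 12. The gene was singled out after its values were seen.

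Ucn3, which encodes a stress peptide of hypothalamic nuclei outside the SCN, ran from 6.53 to 17.1 with a median of 10.9 at ZT 8 and from 1.53 to 9.87 with a median of 4.65 at ZT 12. In 5 of 6 libraries at ZT 12 it lay below every library at ZT 8. Its change of -1.17 ± 0.35 had an unadjusted p of 0.00623 in limma and was not called. Slc2a1, the glucose transporter gene of brain vessels, had medians of 91.6 at ZT 8 and 114 at ZT 12. Its change was 0.26 ± 0.07 with an unadjusted p of 0.00251 in limma. Gfap and Vim, intermediate filament genes of astrocytes and tanycytes, had medians of 189 and 44.2 at ZT 8 and of 262 and 71.4 at ZT 12. Of 22 vessel markers 13 had changes below 0, and of 15 astrocyte markers 11 did, beside 60.3% of all rows. Ucn3, Slc2a1, Gfap and Vim were chosen after their values were seen, and none was called.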
